A study of Mus musculus with 14 samples.

Results

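The receptors for calcitonin gene-related peptide (CGRP) and adrenomedullin were followed at the transcript level in whole hearts with and without p62. The 6 genes described are Calcrl, Ramp1, Ramp2, Ramp3, Adm and Ackr3, matched by Ensembl identifier among 55487 genes in the count table. All 6 passed the filter on low counts that left 15528 genes. RNA came from untreated male C57BL/6 mice in 4 groups: 15-month p62 knockouts (n = 4), 15-month wild types (n = 4), 2-month knockouts (n = 3) and 2-month wild types (n = 3). The knockouts carry Myh6-Cre and Sqstm1fl/fl, so Sqstm1, which encodes p62, is removed where the Myh6 promoter is active, in cardiac muscle cells, and other cells of the heart keep it. The labels name the control hearts only as wildtype, so whether they carry Cre or the floxed allele is not given. Whether hearts were collected and prepared one by one is not given either, so p-values measure only the spread between these samples, which may be technical. A library is called a heart below, although the labels name no animal for it. The genes were chosen with results of these libraries already known. No record says which comparison led to the choice, and the age comparisons may have, so the age differences of these 6 genes are given as descriptions. Their p-values are not printed. Where the text says that one of them passed or did not pass the threshold, that too is a description, and it supports nothing further.

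Calcrl encodes a G protein-coupled receptor that reaches the cell surface and binds its ligands only together with a receptor activity-modifying protein, a small membrane protein with a single transmembrane pass. With RAMP1 it forms the CGRP receptor, and with RAMP2 or RAMP3 it forms the adrenomedullin receptors. CGRP is released from sensory nerve fibres and relaxes coronary vessels, and adrenomedullin acts on blood and lymphatic endothelium, where Calcrl and Ramp2 are needed for vascular development in mice. The receptors signal mainly through Gs and cyclic AMP. Adm encodes adrenomedullin. Ackr3 encodes an atypical chemokine receptor that takes up CXCL12 and has been described as a scavenger of adrenomedullin in mice.

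Positions are those of GENCODE M21 on GRCm38. Ramp1 (ENSMUSG00000034353) spans 91179822 to 91225196 on the plus strand of chromosome 1, and Ackr3 (ENSMUSG00000044337) lies on the same chromosome at 90203980 to 90216751, also on the plus strand. Ramp2 (ENSMUSG00000001240) lies at 101246028 to 101259546 and Ramp3 (ENSMUSG00000041046) at 6658521 to 6677475, both on the plus strand of chromosome 11. Calcrl (ENSMUSG00000059588) lies at 84330626 to 84425411 on the minus strand of chromosome 2. Adm (ENSMUSG00000030790) lies at 110627661 to 110629820 on the plus strand of chromosome 7. Of the 3301 exonic bases of Ramp2, 1103 are shared with Vps25 on the same strand, and 101 of the 1380 exonic bases of Ramp3 lie opposite exons of Gm11978. Levels of Ramp2 and Ramp3 per length are therefore given per kilobase of exon shared with no other gene, 2198 and 1279 bases, because how shared reads were counted is not given. No exonic base of the other 4 genes is shared.

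The RefSeq promoter table (GRCm38.p6) held a sequence for 5 of the 6 genes; Ramp2 had none. The 250 bases before the annotated start were searched on both strands for TGACNNNGC (the core of the antioxidant response element, the site Nrf2 binds), ACGTG (the core of the hypoxia response element), TGACG (the core of the cyclic AMP response element), GGGCGG (the GC box) and TATAAA (the TATA box). The sequence of Ramp1 is shown because Ramp1 differed most between the libraries, and that of Adm because it alone of the 5 held TGACNNNGC. Letters of matches are in capitals.
Ramp1: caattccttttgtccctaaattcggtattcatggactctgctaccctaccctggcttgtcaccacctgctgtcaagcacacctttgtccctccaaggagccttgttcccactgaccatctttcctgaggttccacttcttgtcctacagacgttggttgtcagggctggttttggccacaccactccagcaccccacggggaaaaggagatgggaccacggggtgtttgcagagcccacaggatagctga
Adm: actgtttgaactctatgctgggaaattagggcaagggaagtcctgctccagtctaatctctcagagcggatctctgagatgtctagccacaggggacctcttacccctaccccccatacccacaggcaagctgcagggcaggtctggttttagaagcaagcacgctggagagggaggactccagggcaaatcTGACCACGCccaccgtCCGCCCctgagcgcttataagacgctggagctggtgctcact
The Ramp1 sequence is chr1:91179572-91179821 on the plus strand and matched none of the 5 patterns in this window. The Adm sequence is chr7:110627407-110627656 on the plus strand, with 1 match to TGACNNNGC and, shortly downstream, 1 match to the GC box on the minus strand. TGACNNNGC was found in 10.2% of 32851 promoter sequences of the same length and GGGCGG in 32.7%. ACGTG, found in 16.6% of them, was in none of the 5, and TGACG, in 17.8%, was in none either. TATAAA, in 12.4%, was found in Ackr3 alone of the 5.

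Total counts were 21526968 to 30404416 in 15-month knockout, 22362567 to 29979173 in 15-month wild-type, 21969498 to 26230284 in 2-month knockout and 20218992 to 23651521 in 2-month wild-type libraries. Counts per gene were 731 to 1874 for Calcrl, 886 to 1922 for Ackr3, 184 to 949 for Ramp2, 57 to 433 for Ramp1, 74 to 226 for Adm and 43 to 271 for Ramp3. All 8 of the markers listed for cardiac muscle were measured, at 35950 to 45880 CPM in sum. The atrial light chain Myl7 stood at 638 CPM (counts scaled by library size) in 2-month wild-type replicate 1, against 0.0421 to 58.1 CPM in the other 13 libraries. Without that library the 2-month knockout values kept their signs for all 6 genes, and the age value of Ramp1 in wild type was −2.45 on the log2 scale. In the other 2-month libraries Myl7 stood at 0.0597 to 0.303 CPM. At 15 months it stood at 58.1, 0.0695, 0.482 and 0.0421 CPM in knockout and 39.7, 15.0, 0.357 and 26.9 CPM in wild type. Atrial RNA thus differed widely between these hearts, and its part in the levels of the 6 genes was not tested beyond these values.

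**Figure D1:**
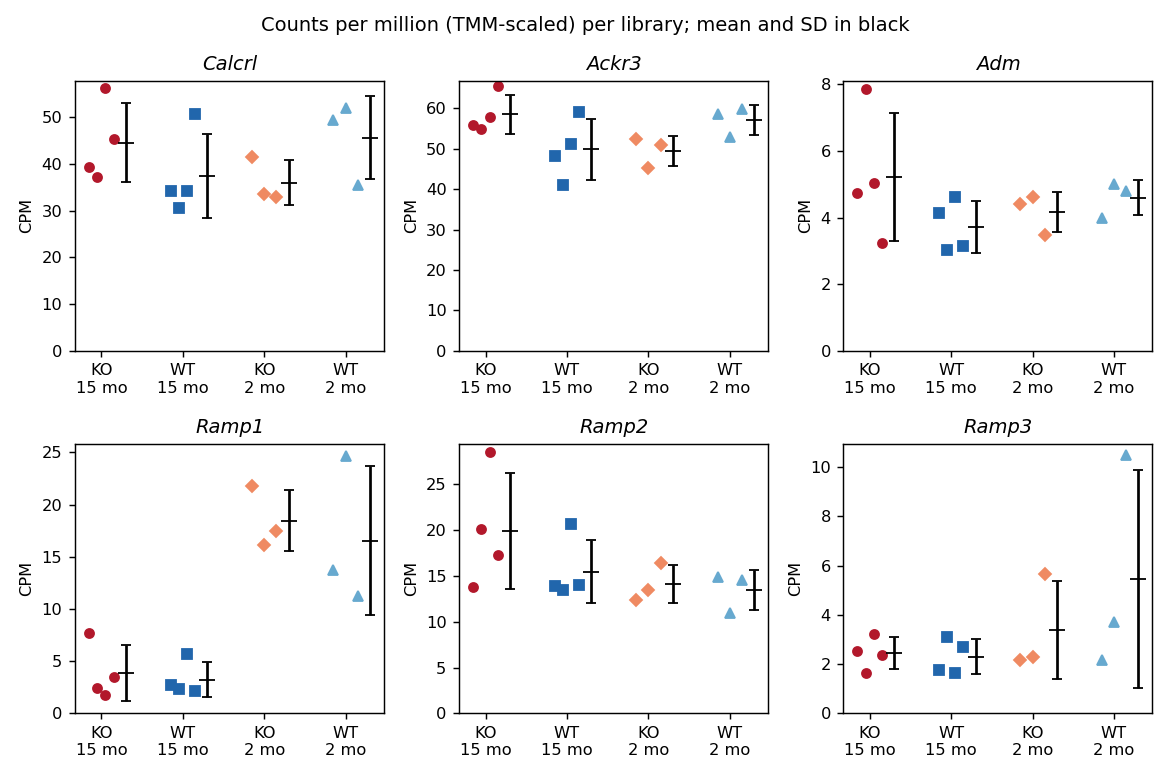
CPM of each gene, scaled by TMM factors (vertical axis, from 0) in every library, grouped by genotype and age; each symbol is 1 library, and the black bar and line give mean and SD (n = 4 at 15 months, n = 3 at 2 months). Ramp1 lies at 1.81 to 7.71 CPM in the 15-month hearts and 11.3 to 24.7 CPM in the 2-month hearts, whereas the groups of Calcrl, Ramp2, Ramp3 and Adm overlap at the 2 ages.

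Ackr3 had the highest level per length and Calcrl the next. Over the 14 libraries Ackr3 averaged 16.1 CPM per kilobase of exon and Calcrl 8.39. The ranges did not overlap, at 12.2 to 19.6 CPM per kilobase for Ackr3 and 6.27 to 11.55 for Calcrl. Ramp2 averaged 7.30 CPM per unshared kilobase, or 4.86 over all of its exons, and its libraries overlapped those of Calcrl and of Ramp1 on the unshared scale. Ramp1 averaged 3.15, Adm 2.74 and Ramp3 2.54 CPM per kilobase, and the ranges of these 3 overlapped. Ackr3 also varied least, with the highest library 1.601 times the lowest, then Calcrl at 1.84, Ramp2 at 2.60 and Adm at 2.61. Ramp3 varied 6.41-fold and Ramp1 13.7-fold (CPM, highest over lowest of 14 libraries).

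Ramp1, the subunit that makes Calcrl a CGRP receptor, was the gene that separated the ages. In knockout hearts it stood at 7.71, 2.43, 1.81 and 3.45 CPM at 15 months, against 21.8, 16.1 and 17.5 CPM at 2 months. In wild-type hearts it stood at 2.72, 2.32, 5.72 and 2.10 CPM at 15 months, against 13.7, 24.7 and 11.3 CPM at 2 months. Every 15-month heart of either genotype was below every 2-month heart, as for 1.4% of the 15528 genes. Within a genotype the 15-month hearts lay below the 2-month hearts without overlap for 11.3% of genes in knockout and 7.57% in wild type. The means were 3.85 ± 2.66 CPM (SD, n = 4) against 18.5 ± 2.94 CPM (SD, n = 3) in knockout and 3.21 ± 1.69 CPM (SD, n = 4) against 16.6 ± 7.12 CPM (SD, n = 3) in wild type. The 15-month mean was thus 20.9% of the 2-month mean in knockout and 19.4% in wild type. The edgeR log2 fold change of 15 over 2 months was −2.29 (SE 0.44) in knockout and −2.35 (SE 0.44) in wild type. These values place Ramp1 at the 0.28 and the 0.23 percentile of all 15528 fold changes. In whole tissue, fewer cells of a type and less RNA per cell cannot be told apart.

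Among the 6 genes, 1 (Ramp1, lower) passed an adjusted p of 0.05 between the ages in each genotype. The background was 2.25% of genes tested in knockout (1.07% higher, 1.18% lower) and 1.04% in wild type (0.612% higher, 0.425% lower), and since Ramp1 may have been chosen for this difference the count is a description. The call rested on most of the libraries. It ended in wild type without 2-month replicate 2 or without 15-month replicate 1, 2 or 4. In knockout it ended without any 1 of the libraries except 15-month replicate 1, without which the log2 fold change was −2.86. Left-out libraries moved the wild-type value between −2.78 and −1.95 and the knockout value between −2.86 and −2.04, so the direction held in each such fit.

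A property of the libraries moved with age. The length slope was taken, in each library, as the slope on log2 exon length of the deviation of each gene's log2 CPM from its average, and it is positive where long transcripts are relatively enriched. It was −0.09 to 0.24 in 15-month knockout, −0.07 to 0.12 in 15-month wild-type, −0.14 to −0.04 in 2-month knockout and −0.18 to −0.01 in 2-month wild-type libraries. With the slope as a covariate, the age difference of Ramp1 was −1.66 (SE 0.51) in knockout and −1.66 (SE 0.50) in wild type on the log2 scale, and the call ended in both. Over the 14 libraries the correlation of Ramp1 with the slope was −0.789, and −0.561 after group means were subtracted, given as a description. For Ramp2 the values were 0.809 and 0.757. The 2 libraries at 15 months with a negative slope, knockout replicate 1 and wild-type replicate 2, lay within the slopes of the 2-month libraries, and had Ramp1 levels of 7.71 and 2.32 CPM, against 11.3 CPM in the lowest 2-month library. What part of the age difference goes with the slope beyond these values was not tested. Knockout replicate 1 also had the highest mitochondrial share of counts, 46.0%, against 27.5% to 40.7% in the other libraries.

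**Figure D2:**
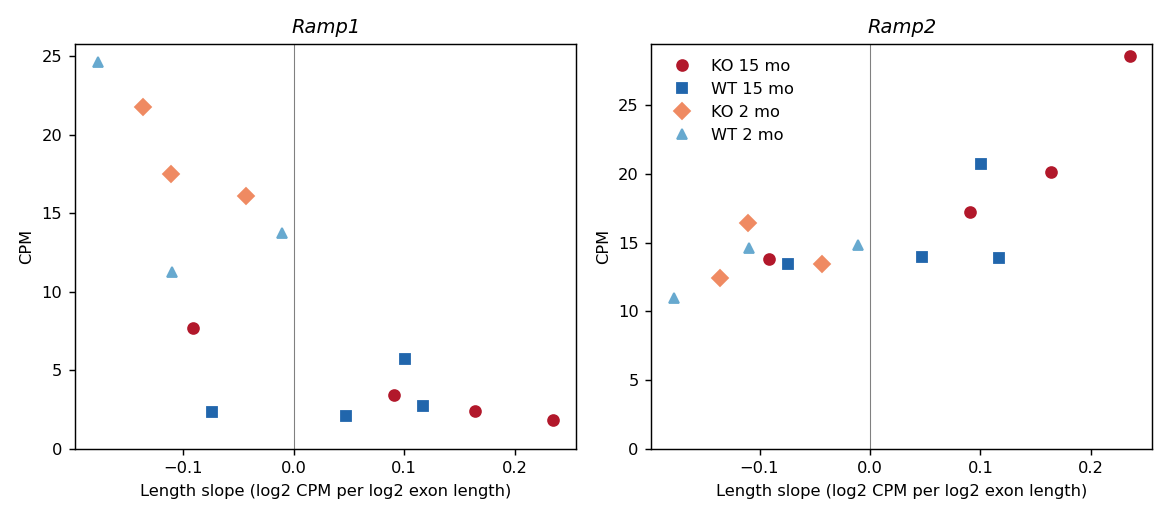
CPM of Ramp1 (left) and Ramp2 (right) on the vertical axis against the length slope of each library (log2 CPM per log2 exon length), 1 symbol per library, by group. The 15-month hearts with slopes of −0.09 and −0.07 have Ramp1 at 7.71 and 2.32 CPM, below all 2-month hearts, and Ramp2 is highest, at 28.6 CPM, in the library with the highest slope.

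Ramp2, the subunit of the vascular adrenomedullin receptor, did not separate the ages. It stood at 13.8, 20.2, 28.6 and 17.3 CPM in 15-month knockout hearts, against 12.4, 13.5 and 16.4 CPM in 2-month knockout hearts. Wild-type hearts had 13.9, 13.4, 20.7 and 13.97 CPM at 15 months, against 14.9, 10.98 and 14.6 CPM at 2 months. The groups overlapped in both genotypes, with log2 fold changes of 0.50 (SE 0.23) in knockout and 0.20 (SE 0.23) in wild type. With the length slope as a covariate these values were −0.04 and −0.17. Without 15-month knockout replicate 1 the knockout value was 0.64 (SE 0.22) and passed. Fits with 1 library left out called 49 to 3523 genes with age in knockout, against 349 of 15528 in the main fit. This call is therefore a description only.

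Ramp3, the third accessory subunit, stood at 2.54, 1.63, 3.22 and 2.36 CPM in 15-month knockout hearts, against 2.17, 2.31 and 5.66 CPM in 2-month knockout hearts. Ramp3 in wild-type hearts stood at 1.76, 3.09, 1.66 and 2.69 CPM at 15 months, against 2.17, 3.70 and 10.5 CPM at 2 months. The 2 highest values belong to replicate 3 of the 2-month knockouts and of the 2-month wild types. In these 2 libraries the clock transcript Ciart, chosen here after its values were seen, was at 16.3 and 20.2 CPM, against 0.657 to 1.20 CPM in the remaining hearts of that age. Ciart in 15-month hearts was at 7.07 to 13.6 CPM in knockout and 8.85 to 12.9 CPM in wild-type hearts, with Ramp3 at most 3.22 CPM in either, and the part of sampling time was not tested. The age difference of Ramp3 in wild type was −1.25 (SE 0.47) on the log2 scale and −0.32 without 2-month wild-type replicate 3. In knockout it was −0.48 (SE 0.48), and 0.12 without 2-month knockout replicate 3.

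The shares of the 3 Ramp transcripts in their sum differed between the ages. On the scale of CPM per unshared kilobase, Ramp1 made up 3.71% to 23.6% of the sum in 15-month knockout hearts, against 32.8% to 49.5% in 2-month knockout hearts. Its share in wild-type hearts was 7.59% to 15.0% at 15 months, against 20.1% to 50.8% at 2 months. Ramp2 made up 73.2% ± 10.9 in 15-month knockout (SD, n = 4) against 42.4% ± 3.68 in 2-month knockout hearts (SD, n = 3), and 70.8% ± 4.09 in 15-month wild-type (SD, n = 4) against 39.6% ± 10.95 in 2-month wild-type hearts (SD, n = 3). Ramp2 was the largest of the 3 in all 8 hearts at 15 months, and at 2 months the largest differed from heart to heart. Ramp3 was the largest in 2-month wild-type replicate 3, at 44.1%. Over all exons of Ramp2, overlapping ones included, Ramp1 made up 48.2% in 2-month knockout and 41.4% in 2-month wild-type hearts on average, more than Ramp2 at 33.4% and 31.3%, so the order of Ramp1 and Ramp2 at 2 months depends on the length used.

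**Figure D3:**
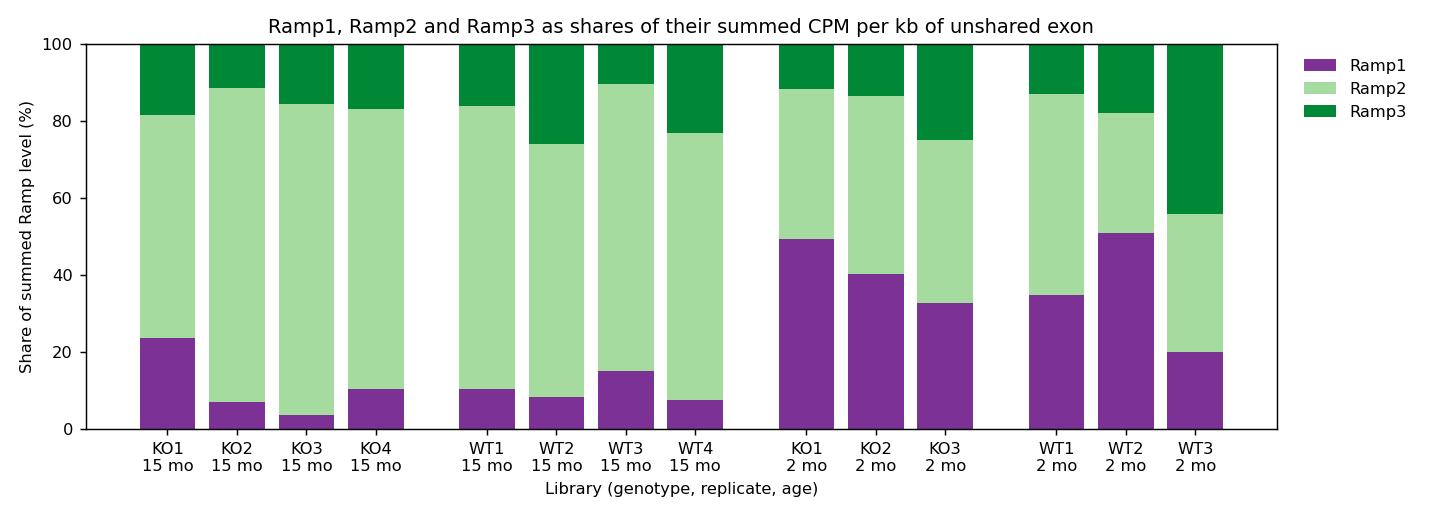
Share (%) of Ramp1, Ramp2 and Ramp3 in their summed CPM per kilobase of unshared exon, 1 stacked bar per library, labelled by genotype, replicate and age. Ramp1 takes at most 23.6% in the 15-month hearts and at least 20.1% in the 2-month hearts, and Ramp2 at least 58.1% in the 15-month hearts.

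Relative to its partner receptor, Ramp1 stood at 0.15 ± 0.12 times Calcrl in 15-month knockout (SD, n = 4) and 0.83 ± 0.05 times in 2-month knockout hearts (SD, n = 3), on the scale of CPM per kilobase. In wild-type hearts the ratio was 0.15 ± 0.09 at 15 months (SD, n = 4) and 0.58 ± 0.17 at 2 months (SD, n = 3). The sum of the 3 Ramp transcripts was 1.34 ± 0.13 times Calcrl in 15-month knockout (SD, n = 4) against 2.09 ± 0.48 times in 2-month knockout hearts (SD, n = 3), and 1.35 ± 0.39 times (SD, n = 4) against 1.78 ± 0.68 times (SD, n = 3) in wild-type hearts, where the ages overlapped. Transcript ratios do not measure receptor protein at the cell surface.

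Calcrl itself stood at 39.4, 37.3, 56.4 and 45.4 CPM in 15-month knockout hearts, against 41.6, 33.6 and 32.9 CPM in 2-month knockout hearts. Calcrl in wild-type hearts stood at 34.2, 30.6, 34.3 and 50.8 CPM at 15 months, against 49.5, 52.1 and 35.5 CPM at 2 months. The ages overlapped in both genotypes, with log2 fold changes of 0.31 (SE 0.20) in knockout and −0.29 (SE 0.20) in wild type. Ackr3 stood at 55.9, 54.9, 57.8 and 65.5 CPM in 15-month knockout hearts, against 52.3, 45.3 and 51.0 CPM in 2-month knockout hearts. In wild-type hearts Ackr3 stood at 48.3, 40.9, 51.2 and 59.0 CPM at 15 months, against 58.6, 52.9 and 59.8 CPM at 2 months. The 15-month hearts lay above the 2-month hearts without overlap in knockout (log2 fold change 0.24, SE 0.13), as for 8.83% of genes. The ages overlapped in wild type (−0.20, SE 0.13), and neither passed. Adm, the ligand, stood at 4.75, 7.86, 5.03 and 3.24 CPM in 15-month knockout hearts, against 4.40, 4.61 and 3.48 CPM in 2-month knockout hearts. Adm in wild-type hearts stood at 4.13, 3.01, 4.61 and 3.13 CPM at 15 months, against 3.99, 5.01 and 4.79 CPM at 2 months. The ages overlapped, with log2 fold changes of 0.33 (SE 0.26) in knockout and −0.30 (SE 0.26) in wild type.

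The comparison of genotypes asked whether loss of p62 in cardiac muscle moved these transcripts, in a study whose title concerns Nrf2 protein and oxidative stress. Sqstm1 stood at 14.6 to 37.0 CPM in 15-month knockout against 173 to 238 CPM in 15-month wild-type hearts, and at 14.7 to 19.3 CPM in 2-month knockout against 139 to 177 CPM in 2-month wild-type hearts. None of the 6 genes passed between genotypes at either age or averaged over both. The background was 0.00644% of 15528 genes in each of these 3 comparisons (edgeR), which is 1 gene, Sqstm1 itself. Before adjustment, p was below 0.05 for 616 genes at 15 months, 494 at 2 months and 506 for the mean, with 0 of the 6 among them. With other tools, DESeq2 gave 7, 7 and 5 genes and limma voom 1 in each, again with 0 of the 6. No alternative setting called a member between genotypes or for the difference between ages (0 of 456 values, lowest adjusted p 0.414 over edgeR, DESeq2 and limma voom).

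At 15 months all 6 log2 fold changes of knockout over wild type lay above 0, with a median of 0.24 against 0.01 over all genes. Adm had 0.49 (SE 0.24, 95% interval −0.02 to 0.9987), averaging 5.22 ± 1.93 CPM in knockout hearts against 3.72 ± 0.78 CPM in wild-type hearts (SD, n = 4 each). Ramp2 had 0.37 (SE 0.21, interval −0.08 to 0.82), averaging 19.95 ± 6.31 CPM in knockout hearts against 15.5 ± 3.47 CPM in wild-type hearts (SD, n = 4 each). Calcrl had 0.25 (SE 0.18, interval −0.14 to 0.64), Ackr3 0.23 (SE 0.12, interval −0.02 to 0.49), Ramp1 0.22 (SE 0.43) and Ramp3 0.09 (SE 0.45). The groups overlapped for each gene, and failed to overlap for 1.99% of all genes in either direction. The smallest adjusted p of the 6 was 0.999 (edgeR). Without 15-month knockout replicate 1 the value of Ramp1 was −0.35, and without wild-type replicate 1, wild-type replicate 3 or knockout replicate 3 that of Ramp3 fell below 0.

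Endothelial markers differed between the same libraries. The 15 listed markers, all measured, had a summed level of 592 to 1942 CPM in 15-month knockout and 619 to 983 CPM in 15-month wild-type hearts. The highest sum belonged to knockout replicate 3, which also had the highest Calcrl and Ramp2 of all 14 libraries, and the lowest sum to knockout replicate 1. At 15 months 14 of the 15 markers had a fold change above 0, with a median of 0.50, and 0 passed. Without knockout replicate 3 the 15-month value of Ramp2 was 0.15 and that of Calcrl 0.12. Knockout replicate 3 also had the highest length slope of all libraries, 0.24, and knockout replicate 1 the lowest at 15 months, −0.09. With the slope as a covariate the 15-month value was 0.20 for Ramp2 and 0.21 for Calcrl. The part of endothelial content or of the slope in these values was not tested.

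At 2 months 4 of the 6 fold changes lay below 0, with a median of −0.17 against −0.001 over all genes. Calcrl had −0.34 (SE 0.21, interval −0.80 to 0.11), averaging 36.0 ± 4.86 CPM in knockout hearts against 45.7 ± 8.88 CPM in wild-type hearts (SD, n = 3 each). Ackr3 had −0.20 (SE 0.14, interval −0.50 to 0.09), and its knockout hearts lay below its wild-type hearts without overlap, at 45.3 to 52.3 and 52.9 to 59.8 CPM. The same was true of 3.72% of genes, and 0.00644% passed the test. Adm had −0.14 (SE 0.28), Ramp1 0.16 (SE 0.46) and Ramp2 0.06 (SE 0.25). Ramp3 had −0.69 (SE 0.50) and 0.24 without wild-type replicate 3, the library with 10.5 CPM. The smallest adjusted p was 0.9997 (edgeR). The intervals are wide for Ramp1, from −0.81 to 1.14 at 2 months and −0.69 to 1.13 at 15 months, and do not show that the genotypes were alike.

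**Figure D4:**
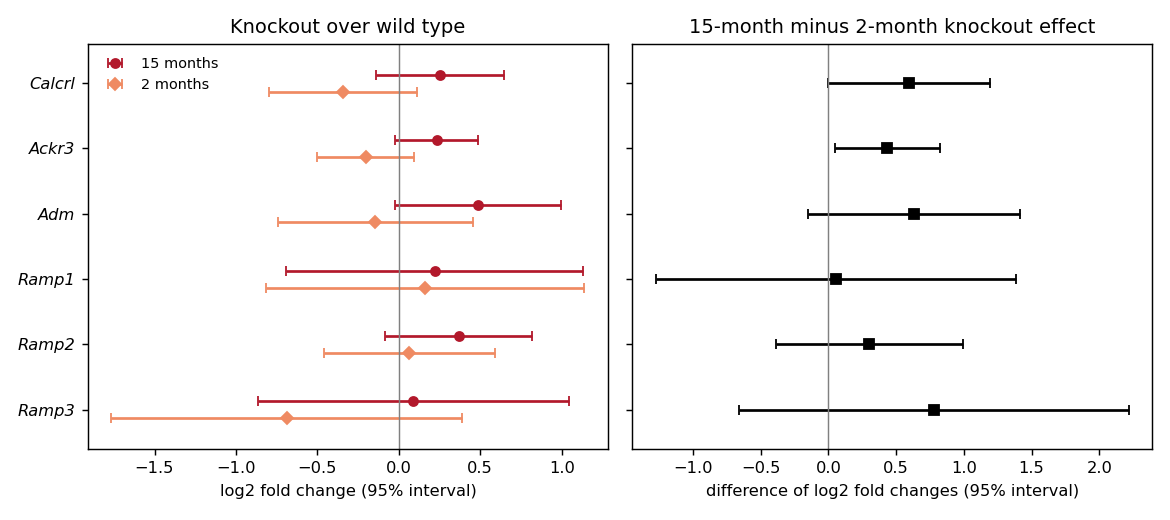
Left, log2 fold change of knockout over wild type at 15 and at 2 months; right, the 15-month value minus the 2-month value (horizontal axes, log2 scale; points are edgeR estimates and bars 95% intervals). All 12 intervals on the left include 0, and on the right that of Ackr3, 0.05 to 0.83, lies above it before adjustment over all genes.

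Averaged over both ages, the values were 0.22 (SE 0.16) for Ramp2, 0.19 (SE 0.31) for Ramp1, 0.17 (SE 0.18) for Adm, 0.01 (SE 0.09) for Ackr3, −0.04 (SE 0.14) for Calcrl and −0.30 (SE 0.34) for Ramp3. The intervals of Ackr3, −0.18 to 0.21, and Calcrl, −0.34 to 0.25, are the narrowest, and the smallest adjusted p was 0.9995 (edgeR).

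The knockout effect at 15 months minus that at 2 months lay above 0 for all 6 genes, with a median of 0.52 against 0.01 over all genes. It was 0.44 (SE 0.18) for Ackr3, 0.60 (SE 0.28) for Calcrl, 0.63 (SE 0.37) for Adm, 0.30 (SE 0.32) for Ramp2, 0.78 (SE 0.67) for Ramp3 and 0.06 (SE 0.62) for Ramp1. No gene of 15528 passed this test, a background of 0%, and the smallest adjusted p of the 6 was 0.9999 (edgeR). Before adjustment, p was below 0.05 for 577 genes, with 1 of the 6 among them (Ackr3, unadjusted p = 0.0309 by edgeR). DESeq2 called 1 gene and limma voom 0. The value of Ramp3 was −0.14 without 2-month wild-type replicate 3, and that of Ramp1 −0.51 without 15-month knockout replicate 1. Fibroblast markers lay on the same side, with 9 of 9 above 0 and a median of 1.09 for this difference, and 0 passed. Their mean log2 CPM was 6.38 in 2-month wild-type replicate 1, against 5.645 and 4.99 in replicates 2 and 3. Above 0 too were 5 of 6 measured lymphatic endothelial markers (median 0.75) and 13 of 15 endothelial markers (median 0.33). So were 8 of 10 smooth muscle and pericyte markers and 7 of 7 macrophage markers (median 0.41 each). Below 0 were 7 of 8 cardiac muscle markers (median −0.21), 3 of 4 measured epicardial markers and 3 of 5 blood markers. The part of these cells in the values of the 6 genes was not tested.

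Other ligands of these receptors were nearly absent from the heart libraries. Calca and Calcb, which encode the CGRP peptides, had 2 and 7 counts in all 14 libraries together. Adm2, which encodes intermedin, and Iapp, which encodes amylin, had 0 counts in all 14, and Calcr, the calcitonin receptor, had 1. The CGRP of the heart comes from nerve fibres whose cell bodies lie outside it. Pam, the enzyme that amidates CGRP and adrenomedullin, averaged 597 CPM (scaled to library totals).

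Of the 4 measured genes of ligand processing and breakdown, 0 passed between genotypes at either age, and 1 rose between the ages in knockout hearts. Among all genes tested, 1.07% rose there. The list gene that rose was Mme, the membrane protease neprilysin, at 20.1 CPM in 15-month and 10.5 CPM in 2-month knockout hearts (log2 fold change 0.94, SE 0.18, adjusted p by edgeR = 0.0196). In wild-type hearts Mme was at 16.9 CPM at 15 months and 12.5 CPM at 2 months (0.43, SE 0.18, edgeR adjusted p = 0.166), and the difference between the genotypes, 0.51 (SE 0.25), did not pass. The companion lists were also chosen with earlier results known, so the age calls of their genes, here and below, are descriptions. Fits with 1 library left out called 49 to 3523 genes with age in knockout and 38 to 511 in wild type. Pam averaged over the ages had a knockout value of −0.40 (SE 0.15) that did not pass. It was −0.39 (SE 0.22) at 2 months and −0.40 (SE 0.19) at 15 months. The 4 genes summed to 1639 CPM in 2-month wild-type replicate 1, the library with the highest Myl7. The sums were 854 and 856 CPM in 2-month wild-type replicates 2 and 3, and 784 to 880 CPM in 2-month knockouts.

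Gpr182, an endothelial receptor once proposed to bind adrenomedullin, rose between the ages in knockout hearts, with 3.72 to 8.85 CPM at 15 months against 1.68 to 2.26 CPM at 2 months (log2 fold change 1.79, SE 0.39, adjusted p by edgeR = 0.0326). Gpr182 in wild-type hearts had 2.32 to 6.27 CPM at 15 months against 1.82 to 4.15 CPM at 2 months (0.85, SE 0.38), which did not pass, and the difference between genotypes, 0.95 (SE 0.53), did not pass. Crcp, the receptor component protein that couples the CGRP receptor to its G protein, gave 0 calls in the 6 comparisons, with −0.11 (SE 0.21) for knockout at 15 months and −0.19 (SE 0.25) at 2 months.

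Of the 17 listed genes of Gs, adenylyl cyclase, protein kinase A and receptor desensitisation, all measured, 0 passed between genotypes and 1 fell with age in knockout hearts. Among all genes tested, 1.18% fell with age in knockout. Adcy5, the main cardiac adenylyl cyclase together with Adcy6, was at 62.2 to 67.5 CPM at 15 months against 96.3 to 104 CPM at 2 months in knockout (log2 fold change −0.61, SE 0.13, adjusted p by edgeR = 0.0347). In wild-type hearts Adcy5 was at 66.97 to 89.4 CPM at 15 months against 71.1 to 99.6 CPM at 2 months. The difference between the genotypes was −0.56 (SE 0.19) and did not pass. Prkaca, the catalytic subunit of protein kinase A, had a knockout value of 0.36 (SE 0.17) at 2 months and did not pass. The median of the list lay at 0.10 for knockout at 15 months and 0.12 at 2 months, against 0.01 and −0.001 over all genes.

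Cxcl12, the chemokine that Ackr3 takes up, had 0.98 (SE 0.30) for 15 over 2 months in knockout and 0.88 (SE 0.30) in wild type on the log2 scale, and neither passed (adjusted p by edgeR = 0.0796 and 0.119). It stood at 99.9 to 329 CPM at 15 months against 89.6 to 101 CPM at 2 months in knockout, and at 119 to 184 CPM against 72.9 to 96.7 CPM in wild type. Cxcr4, its signalling receptor, had 0.02 (SE 0.18) in knockout and 0.04 (SE 0.18) in wild type between the ages. Of 14 hypoxia-inducible genes, a group to which Adm is known to belong, 1 fell with age in knockout hearts, the glycolytic Pgk1 (−0.55, SE 0.11, adjusted p by edgeR = 0.0264), and 0 passed in wild-type hearts or between genotypes. Among all genes tested, 1.18% fell with age in knockout.

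Markers of other cells were set beside the age difference of Ramp1. Among all genes tested, 2.25% passed with age in knockout and 1.04% in wild type. In smooth muscle and pericytes, 1 of 10 markers passed with age in knockout hearts, Acta2, lower at −1.31 (SE 0.30), and 0 passed in wild type. Acta2 went against most of its list in knockout, where 6 markers lay above 0 and 4 below, with a median of 0.596. In wild type 5 lay above 0 and 5 below, with a median of −0.115. The summed level of this list was 1148 to 1784 CPM at 15 months against 1335 to 1455 CPM at 2 months in knockout, and 1027 to 1567 CPM against 1359 to 1463 CPM in wild type. Of the 6 Schwann cell and neuronal markers 3 were measured. They did not move together with age, with 2 above 0 and 1 below in knockout (median 0.099) and 1 above and 2 below in wild type (median −0.531). The 1 that passed was Dbh, the enzyme that makes noradrenaline, lower in wild-type hearts at −2.45 (SE 0.38, adjusted p by edgeR = 0.00761). Dbh stood at 6.04, 1.67, 1.81 and 2.82 CPM in 15-month knockout against 4.81 to 7.63 CPM in 2-month knockout hearts, and at 1.14 to 1.48 CPM in 15-month against 4.64 to 8.30 CPM in 2-month wild-type hearts. The knockout heart with 6.04 CPM is replicate 1, which had the highest Ramp1 at 15 months. Th, an enzyme that acts earlier than Dbh in noradrenaline synthesis, had 2 counts in all 14 libraries together. The cardiac muscle list summed to 38320 to 43470 CPM at 15 months against 37700 to 44870 CPM at 2 months in knockout, and 38070 to 45880 CPM against 35950 to 41190 CPM in wild type. The part of these cells in the Ramp1 difference was not tested. In fibroblasts, 1 of 9 markers passed with age in wild-type hearts, Mfap5, lower at −1.18 (SE 0.18, adjusted p by edgeR = 0.00582). In wild type all 9 lay below 0, with a median of −0.742. In knockout 6 lay above 0 and 3 below, with a median of 0.443, and 0 passed. The part of fibroblasts in the Ramp1 difference was not tested either. Of the markers of endothelium, lymphatic endothelium, atria, epicardium, macrophages, fat and blood, 0 passed in any of the 6 comparisons. This does not show that their content was alike. With age in knockout, 11 of 15 endothelial markers (median 0.67) and 6 of 6 measured lymphatic endothelial markers (median 0.95) lay above 0. In wild type 12 of 15 (median 0.32) and 5 of 6 (median 0.28) did.

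The genes most alike each receptor gene in pattern were sought among 11330 protein-coding genes by the Pearson correlation of log2 CPM over the 14 libraries, which share age, genotype and depth differences, so the values are descriptions. For Ramp1 they were Mlf1 (0.945), Abhd13 (0.944) and Tiprl (0.943). Within groups, after group means were subtracted, these were 0.782, 0.708 and 0.724, and the highest was instead mt-Co2 (0.920). Mlf1 stood at 38.4 to 96.2 CPM in 15-month knockout against 124 to 155 CPM in 2-month knockout hearts, with its highest 15-month value in knockout replicate 1, as for Ramp1. For Ramp2 they were Sorbs3 (0.964), Glmp (0.952) and Ncoa3 (0.947), which kept 0.921 to 0.948 within groups. For Ramp3 they were Gch1 (0.955), Ifrd1 (0.944) and Pwwp2b (0.914), with 0.902 to 0.946 within groups. Ifrd1 was at 40.8 CPM in 2-month knockout replicate 3 and 65.8 CPM in 2-month wild-type replicate 3, against 15.3 to 28.4 CPM elsewhere. For Calcrl they were Sowahc (0.898), Trim30a (0.887) and Col6a3 (0.870), for Adm they included Rab2a (0.824) and Klhl3 (0.770), and for Ackr3 Far1 (0.859), Abcc3 (0.831) and Olfr1034 (0.825). Among the 6 genes themselves the highest correlation was 0.659, between Calcrl and Ackr3, and the lowest −0.540, between Ramp1 and Ramp2, with 0.496 and −0.406 within groups.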

How the data were processed

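Raw counts per Ensembl gene, whole numbers and not normalized, were deposited by the authors for 14 whole-heart libraries. Total RNA was used with a strand-marking kit and removal of rRNA, per the labels' protocols. The submitters' processing notes list STAR 2.7.3a, cutadapt 1.16, DESeq2 1.26.0, featureCounts 1.6.3 and the build GRCm38. For the annotation, strand option and reads shared between genes: not given in the sources used here. Symbols, positions and exon lengths came from GENCODE M21, which held 55227 of 55487 identifiers.

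With edgeR 4.0.16 (R 4.3.3), filterByExpr kept genes (minimum count 10, minimum total 15), TMM scaled the libraries, and a robust quasi-likelihood model with 1 mean per group was fitted to all 14. Each of 6 comparisons was adjusted by Benjamini-Hochberg over 15528 genes (threshold 0.05). The SE is the log2 fold change over the root of F, and 95% intervals use the moderated degrees of freedom. CPM use TMM-scaled totals unless stated. No library repeated another (lowest chi-square per gene 19.8 over all pairs, 30.2 within a group). The fits were tested on simulated data.

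The members and the 16 companion lists were chosen with earlier results of these data known. The rule for names took the 6 genes, Sqstm1, up to 4 passing genes of each list (or values of up to 2 with the smallest p), and the 3 genes most correlated with each member. Alternatives were RLE factors, other filters, DESeq2 1.42.0, limma 3.58.1 voom, only the groups compared, a replicate block, no mitochondrial genes, the length slope as a covariate, other thresholds and each library left out. Levels per unshared exon were added after the data were seen. Some genes that the rule names are not reported here.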

Additional observations from a re-analysis of the deposited data

Results flagged for a closer look

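In 15-month wild-type hearts, Ramp2 in replicate 3 was at 20.7 CPM, far from the other 3 hearts at 13.4 to 13.97 CPM, with a gap of 0.926 of the group's range against a critical value of 0.829. The same heart had the highest Ramp1 of its group, 5.72 CPM. Of 12 groups of 4 hearts tested this was the 1 set apart, and chance sets apart about 1 in 20.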

How the results depend on the processing

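The log2 fold changes of the 6 genes were rated unchanged in 618 of 648 values under alternatives. For knockout and difference values this means that direction and side of the threshold were kept. For age values it means a shift smaller than the pooled within-group SD of log2 CPM, whether or not a call ended. Of the 456 knockout or difference values 0 passed. The difference of knockout effects for Ramp1 was −0.060 with a replicate block and −0.24 by limma voom. Correlations of the deviations of same-numbered hearts ran from −0.353 to 0.315 and were not all above 0.1, so the numbers were not taken as pairs. The replicate block gave 101 genes with age in wild type, 0 of the 6 among them. At 2 months the knockout comparison called 3 genes with no filter, 2 with a mean CPM filter, 5 with the length slope, 7 by DESeq2 and 2 at a threshold of 0.1. At 15 months it called 2 with only the groups compared, 7 by DESeq2, and 1 to 3 with a library left out (3 without knockout replicate 1). DESeq2 called 5 for the mean and 1 for the difference, which gave 0 to 1 with a library left out. With age in wild type there were 86 genes with only the groups compared, 1100 by DESeq2, 706 at 0.1, 100 at a minimum log2 change of 1, and 38 to 511 with a library left out. With age in knockout there were 86 with the length slope, 134 with only the groups compared, 1622 by DESeq2, 1616 at 0.1, 226 at a minimum of 1, and 49 to 3523 with a library left out. Members called with age were 0 with no filter and 0 with the length slope in both genotypes, 0 with only the groups compared in knockout, and with a library left out 0 to 2 in knockout and 0 to 1 in wild type; the cause was not tested. With a library left out, the 2-month knockout value ranged from −0.037 to 0.56 for Ramp1, −0.059 to 0.15 for Ramp2 and −1.29 to 0.24 for Ramp3. At 15 months it ranged from −0.35 to 0.66 for Ramp1 and −0.080 to 0.26 for Ramp3. The mean over ages ranged from −0.092 to 0.41 for Ramp1, −0.60 to 0.17 for Ramp3, −0.11 to 0.053 for Calcrl and −0.028 to 0.066 for Ackr3. The difference ranged from −0.51 to 0.49 for Ramp1 and −0.14 to 1.38 for Ramp3. The age value of Ramp3 ranged from −0.71 to 0.12 in knockout and −1.63 to −0.32 in wild type. Only the groups compared gives no separate value for the mean and the difference.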
